A study of Mus musculus with 2 samples.

Results

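The angiopoietin and Tie receptor genes are a group of 5 mouse genes, Tek, Tie1, Angpt1, Angpt2 and Ptprb, listed by name and not by a measured value. The list was made with earlier results of these data known. GATA4 binding at them was read from chromatin immunoprecipitation sequencing (ChIP-seq) of adult mouse liver, with every peak of the authors' optimal list counted whose summit lay in a gene or within 10 kb of it. The 5 genes were among 21755 protein-coding genes of chromosomes 1 to 19 and X, and held 21 of the 24050 peaks. The study had 1 group, healthy adult mouse whole liver with an antibody against GATA4, in 2 replicates, and no other tissue, genotype or treatment. The labels give both replicates 1 biosample and 1 donor, so differences between them may be technical only, and they give no strain, sex or age. Whole liver mixes hepatocytes, sinusoidal endothelium, stellate cells and Kupffer cells, so a weak peak in many cells and a strong peak in few cannot be told apart, and no RNA was measured. A summit in or near a gene does not assign the peak to that gene.

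Tek encodes TIE2, a receptor tyrosine kinase of endothelial cells, and Tie1 encodes its co-receptor. Angpt1 encodes the ligand that activates TIE2 and is made mainly by cells around the vessel, while Angpt2 encodes a ligand released by endothelial cells that blocks or activates TIE2 depending on the context. Ptprb encodes VE-PTP, an endothelial phosphatase that takes phosphate off TIE2 and works with VE-cadherin. GATA4 is a zinc finger transcription factor that binds GATA sequences and is expressed in liver sinusoidal endothelium as well as in other liver cells, and ETS factors, which bind GGAA sequences, are a family with many members in endothelial cells.

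The sequences around the summits were searched on both strands for a GATA motif, WGATAR (the letters GATA with A or T before them and A or G after them), and for an ETS motif, MGGAAR (the letters GGAA with A or C before them and A or G after them). Matches of the motifs may overlap. Peaks of each gene are numbered by signal score, the peak caller's measure of enrichment, from the strongest down. Coordinates are of mm10 (GRCm38.p6), the sequences run 5′ to 3′ on the strand of the gene, and capitals mark the motif letters, read as the reverse complement where the motif is on the opposite strand. The Tek peaks below are shown because, at the optimal list's summits, the strongest ones hold ETS and no GATA motif within 50 bp. A weaker one has a GATA motif at its summit. They lie on the plus strand, the window of peak 2 at chr4:94746562-94746662, that of peak 3 at chr4:94830264-94830364 and that of peak 4 at chr4:94803360-94803460. For peak 1, in the untranslated first exon, 24 bases are given at the ETS pair, chr4:94739421-94739444, and 24 at the GATA motif farther from the summit, chr4:94739316-94739339.
Tek peak 1, ETS pair: aatctgcaaAGGAAAcAGGAAAaa
Tek peak 1, GATA motif: aggagcagaAGATAAgccttggat
Tek peak 2: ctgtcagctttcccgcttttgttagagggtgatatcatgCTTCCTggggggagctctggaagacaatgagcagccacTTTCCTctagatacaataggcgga
Tek peak 3: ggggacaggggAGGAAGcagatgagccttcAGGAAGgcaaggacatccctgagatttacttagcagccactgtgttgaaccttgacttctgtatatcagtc
Tek peak 4: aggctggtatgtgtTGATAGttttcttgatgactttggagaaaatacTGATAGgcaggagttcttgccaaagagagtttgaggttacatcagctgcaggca

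The Angpt1 window is shown because the only peak of this ligand gene has a GATA motif within 50 bp of the optimal list's summit. It lies on the minus strand at chr15:42626397-42626497.
Angpt1 peak 1: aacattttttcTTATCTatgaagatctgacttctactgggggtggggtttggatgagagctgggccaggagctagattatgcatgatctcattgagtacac

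The Ptprb windows are those of its most reproducible peaks with a GATA motif within 50 bp of the optimal list's summit. All lie on the plus strand, at chr10:116288222-116288322 for peak 1 and chr10:116310715-116310815 for peak 2. That of peak 4, at chr10:116275437-116275522, is cut to the bases before the first exon. For peak 7, at the other Ptprb start site, 24 bases around an ETS motif are given, chr10:116301368-116301391.
Ptprb peak 1: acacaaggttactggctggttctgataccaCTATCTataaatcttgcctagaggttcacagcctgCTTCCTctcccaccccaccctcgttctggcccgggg
Ptprb peak 2: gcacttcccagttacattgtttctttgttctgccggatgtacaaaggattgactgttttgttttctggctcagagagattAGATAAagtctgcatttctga
Ptprb peak 4: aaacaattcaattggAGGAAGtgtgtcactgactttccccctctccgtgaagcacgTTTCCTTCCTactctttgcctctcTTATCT
Ptprb peak 7: ttttgattgCGGAAGtcccggacg

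All 5 genes had a summit of the optimal list in the gene or within 10 kb, against 47.6% of protein-coding genes. The summits were very unevenly shared, with 11 at Ptprb, 7 at Tek and 1 each at Tie1, Angpt1 and Angpt2. By place, 13 summits lay in introns, 6 at promoters (within 1 kb of the start site of a protein-coding gene) and 2 between genes, where 40.4% of all peaks were intronic and 21.6% at promoters. The median signal score was 44.5 over the 21 peaks and 35.8 over all peaks of the list.

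The replicates gave lists of very different length, 4287 thresholded peaks in replicate 1 and 26314 in replicate 2, so absence from replicate 1 is common throughout. Of the 21 peaks, 6 overlapped replicate 1's thresholded list, where 17.0% of all optimal peaks did, and 16 overlapped replicate 2's, where 82.5% did. The peaks in both lists were Tek peak 1 and Ptprb peaks 1 to 4, 5 in all, against 16.3% of optimal peaks. A further 11 were in replicate 2's list only, 1 (Angpt1 peak 1) was in replicate 1's only, and 4 were in neither (Tek peak 6, Angpt2 peak 1, and Ptprb peaks 10 and 11). In the ranked lists, which also hold peaks below the threshold on the irreproducible discovery rate (IDR), 14 of the 21 had a candidate in replicate 1 and all 21 had one in replicate 2, against 45.2% and 98.0% of all optimal peaks. By gene, 3 of the 5 had a summit in replicate 1's thresholded list (Tek, Angpt1 and Ptprb), against 11.4% of genes, and 4 had one in replicate 2's (all but Angpt2), against 51.8%. Tek, Angpt1 and Ptprb are the longest of the 5 genes, and no share over genes of like span is given for these lists.

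**Figure D1:**
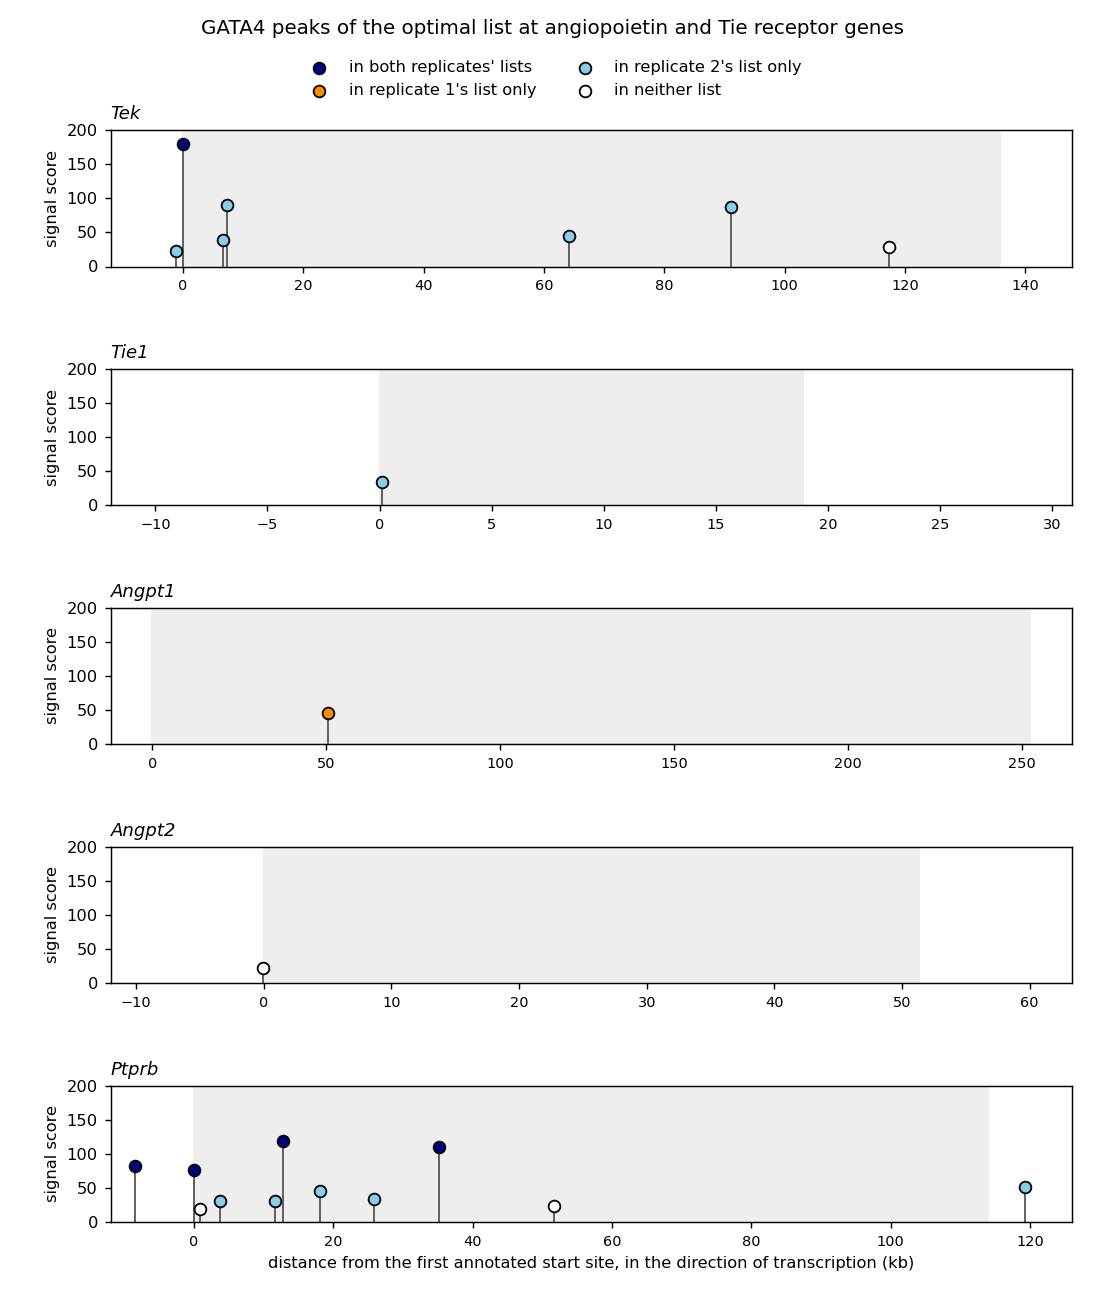
Signal score of each optimal-list peak (vertical axis, no unit) against its distance in kb from the first annotated start site in the direction of transcription (horizontal axis), with 1 panel per gene, the gene body in grey, and colour for the replicate lists that hold the peak. Tek and Ptprb carry 7 and 11 peaks, with the highest score of 180.1 at the Tek start site, and the other genes carry 1 each.

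**Figure D2:**
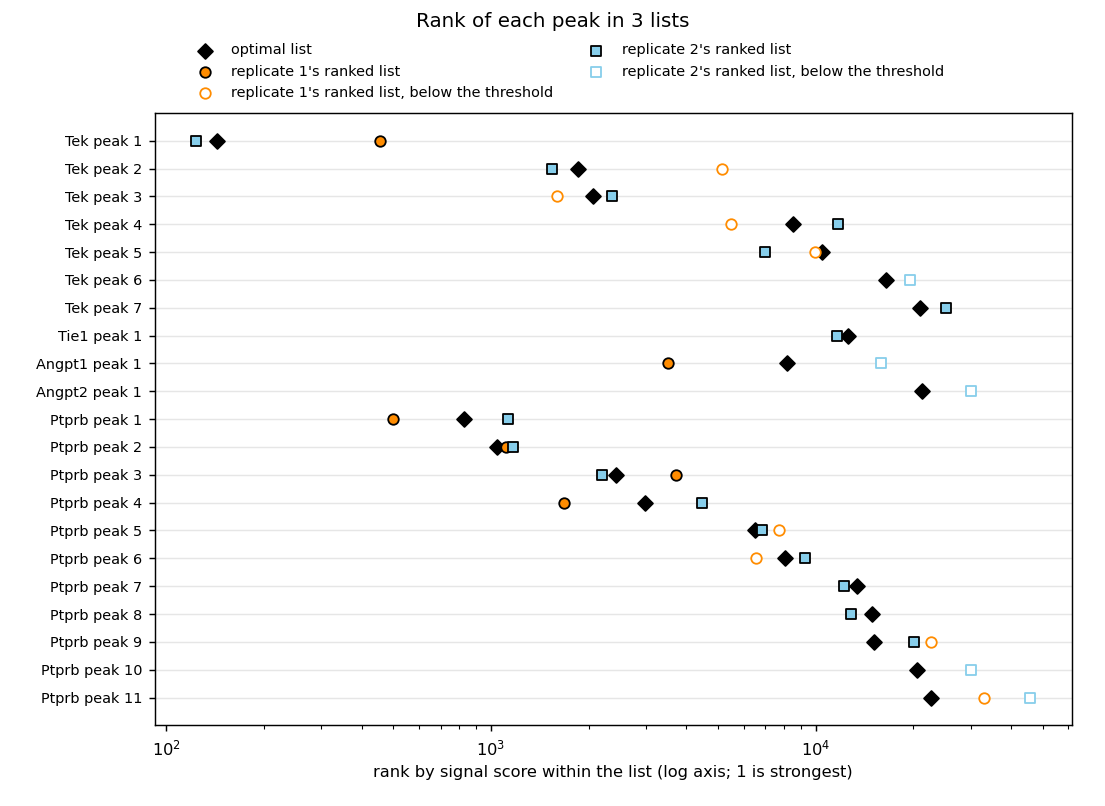
Rank of each of the 21 peaks by signal score (horizontal log axis) in the optimal list (diamonds), replicate 1's ranked list (circles) and replicate 2's (squares), open where the peak missed that replicate's IDR threshold. Filled circles are limited to Tek peak 1, Angpt1 peak 1 and Ptprb peaks 1 to 4, and ranks from lists of different length are not comparable as levels.

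Tek (chr4:94739289-94874976, plus strand) held the strongest of the 21 peaks, at its own promoter. Tek peak 1 (chr4:94739207-94739535) had a signal score of 180.1, rank 144 in the list and rank 25 among the 5197 promoter peaks, with its summit 93 bases downstream of an annotated start site, in the untranslated first exon. It scored 37.5 in replicate 1's ranked list, rank 456 of 52298, and 142 in replicate 2's, rank 124 of 89101. It passed the threshold in both replicates and was in both conservative lists. No GATA motif lay within 50 bp of the summit, and the nearest was centred 65.5 bp upstream of it. The 2 ETS motifs within 50 bp were centred 39.5 and 46.5 bp downstream of the summit, and none lay within 25 bp. Replicate 1 placed the summit 23 bp farther upstream, where 1 GATA motif and no ETS motif came within 50 bp, while replicate 2 placed it 5 bp downstream with no GATA and 2 ETS motifs. Which motif is near this summit thus depended on the replicate.

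The 250 bases before the Tek start site in the RefSeq promoter table of GRCm38.p6, which matched Tek and Tie1 of the 5 genes, held neither motif (chr4:94739039-94739288, plus strand). Across the 32851 promoters of the table, 26.5% held the GATA motif and 57.2% the ETS motif in the same stretch. The stretch is printed in full because the strongest peak reaches into it.
Tek upstream: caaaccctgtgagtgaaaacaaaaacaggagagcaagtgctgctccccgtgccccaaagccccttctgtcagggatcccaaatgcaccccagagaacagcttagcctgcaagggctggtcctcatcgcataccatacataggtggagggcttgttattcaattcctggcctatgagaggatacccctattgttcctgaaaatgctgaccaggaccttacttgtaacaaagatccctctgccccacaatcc
The Tie1 stretch of that table (chr4:118489850-118490099, minus strand) held 0 GATA and 3 ETS motifs. It is placed from a RefSeq start site, spans the Tie1 start site used here and contains the summit of Tie1 peak 1.

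The next strongest Tek peaks were intronic and also had ETS but no GATA motif within 50 bp. Tek peak 2, in intron 1 and 7.09 kb from the nearest Tek start site, had a signal score of 90.8 and rank 1853, and holds 2 ETS motifs. It ranked 1539 in replicate 2, where it passed the threshold, and 5147 in replicate 1, where its IDR score of 508 fell short of 540, the score of an IDR of 0.05. Tek peak 3, 90.8 kb from that start site in intron 10 or 11 depending on the transcript, had a signal score of 87.4, rank 2056 and 2 ETS motifs, and ranked 1598 in replicate 1 without passing the threshold there (IDR score 225). The shorter letters GATA, without the flanking bases, were matched 3 times within 50 bp of each of the summits of peaks 1 and 2 and once at peak 3.

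The weaker Tek peaks each had a GATA motif within 50 bp of the optimal list's summit. Tek peak 4, 63.9 kb downstream of the start site, had a signal score of 44.5 and rank 8492, with 2 GATA motifs, 1 of them centred 0.5 bp from the summit, and a CAGCTG E-box, which 7.68% of all peaks hold. Tek peak 5, in intron 1, ranked 10461 with 1 motif of each kind 33 bp apart. At replicate 1's summit of peak 5, 85 bp away, neither motif lay within 50 bp. Tek peak 6, 117 kb downstream and nearer to the start site of Eqtn, ranked 16521 with 1 of each. Tek peak 7, 1163 bases upstream of the gene, ranked 20952 with 2 GATA motifs. Tek peaks 1 to 5 were in both conservative lists. Peaks 6 and 7, with IDR values of 0.0316 and 0.0130, were in neither conservative list, and neither had a candidate in replicate 1's ranked list. Over the 7 Tek peaks, 4 had a GATA and 5 an ETS motif.

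Tek's 7 summits compare with a median of 1 over the 3089 genes of like span (between 0.5 and 2 times that of Tek), of which 66.5% had any and 8.29% had 7 or more. Replicate 2's list adds a site 2498 bases from a Tek start site (chr4:94741836-94742195), rank 21166 of 26314, that is not in the optimal list.

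Tie1 (chr4:118471191-118490061, minus strand) had 1 peak, at its promoter and seen in 1 replicate. Tie1 peak 1 (chr4:118489771-118490130) had a signal score of 34.8, rank 12562 and an IDR of 0.0123, with the summit 110 bases into the untranslated first exon. In replicate 2 it ranked 11617 of 89101 with a score of 29.7 and passed the threshold. Replicate 1 had no candidate in Tie1 or within 10 kb, neither in its ranked list nor in its relaxed list of 300000 positions. Neither motif lay within 100 bp of the summit, and the peak was in neither conservative list. Among the 8008 genes of like span 50.5% had a summit.

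Angpt1 (chr15:42424723-42676977, minus strand), the longest of the 5 genes, had 1 peak, deep in its first intron. Angpt1 peak 1 (chr15:42626267-42626626), 50.5 kb from the start site, had a signal score of 45.6 and rank 8187, and was in both conservative lists. Replicate 1 ranked it 3516 with an IDR score of 716, above the threshold, and replicate 2 ranked it 15866 with an IDR score of 411, below it. Its 1 GATA motif, AGATAA, was centred 36.5 bp from the summit of the optimal list and lay outside 50 bp of replicate 2's summit, which was 65 bp away. The motif also lay outside 50 bp of the summit in the ranked list of the pooled reads, which was 57 bp away. Replicate 2's own thresholded Angpt1 peak was another intronic site, chr15:42591742-42592101, 85055 bases from the start site, rank 22465 of 26314, with 1 motif of each kind. Thus the replicates each called 1 Angpt1 site, and not the same one. Among the 1617 genes of like span 69.4% had a summit, with a median of 2.

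Angpt2 (chr8:18690263-18741562, minus strand) had 1 peak, at its promoter, which was in neither replicate's list and held more GATA motifs near the summit than any other of the 21. Angpt2 peak 1, with its summit 42 bases before the start site, had a signal score of 22.2, rank 21214 and an IDR of 0.0386. It was in neither conservative list, nor in the later run's pooled thresholded list. In replicate 2's ranked list it ranked 30152 with an IDR score of 497, and replicate 1's ranked list had no candidate there. The 3 GATA motifs within 50 bp of the summit compare with 3 or more in 1.21% of all peaks and in 0.462% of promoter peaks. The same window held 2 ETS motifs. Within 50 bp of replicate 2's summit, 19 bp away, there were 2 GATA motifs and 1 ETS motif. Angpt2 lies inside the span of Mcph1, a gene of the opposite strand that codes for microcephalin, so the peak also lies within Mcph1. Among the 6157 genes of like span 59.5% had a summit.

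Ptprb (chr10:116275523-116389535, plus strand) held 11 summits, the most of the 5 genes, at both start sites of the basic annotation, in introns and on both sides of the gene. Among the 3647 genes of like span 65.5% had any summit, the median was 1, and 1.43% had 11 or more. Ptprb peaks 1 to 4 were in both replicates' thresholded lists and in both conservative lists. Peak 1 (chr10:116288169-116288360), in intron 3 of transcript Ptprb-203 and 12.7 kb from its start site, had a signal score of 118 and rank 824, and ranked 500 in replicate 1 and 1132 in replicate 2. It holds a GATA and an ETS motif 35 bp apart. At replicate 1's summit, 38 bp farther upstream, the ETS motif fell outside 50 bp. Peak 2 (chr10:116310624-116310845), 9.39 kb downstream of the start site of Ptprb-201, had a signal score of 109.9 and rank 1045, and ranked 1111 in replicate 1 and 1171 in replicate 2. It holds the GATA motif AGATAA and no ETS motif within 50 bp. At replicate 2's summit, 48 bp farther upstream, the GATA motif fell outside 50 bp.

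Peaks 3 and 4 marked the upstream end. Peak 3 (chr10:116266959-116267130), 8478 bases before the first start site and inside Ptprr, a neighbouring phosphatase gene, had rank 2426, 1 ETS and no GATA motif. Peak 4 (chr10:116275382-116275566), 63 bases before the start site of Ptprb-203, had a signal score of 75.8, rank 2973 and rank 384 among promoter peaks, with 1 GATA and 3 ETS motifs. It ranked 1677 in replicate 1 and 4470 in replicate 2. At replicate 1's summit, 22 bp farther upstream, the GATA motif fell outside 50 bp. At the start site of Ptprb-201 the only peak was peak 7 (chr10:116301207-116301566), whose summit lay 15 bases into the untranslated first exon, with a signal score of 33.4, rank 13362, 2 ETS and no GATA motifs. It passed the threshold in replicate 2 only and had no candidate in replicate 1's ranked list, so of the Ptprb start sites the upstream one had the peak seen in both replicates.

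The other Ptprb peaks all had lower signal scores than peaks 1 to 4. Peak 5 (chr10:116394612-116394971), downstream of the gene and nearer to the start site of Kcnmb4, ranked 6507 with 1 motif of each kind. It was in replicate 2's list. Peaks 6, 8, 9, 10 and 11, with ranks between 8066 and 22671, had neither motif within 50 bp of the summit. A GATA motif lay within 100 bp at peaks 6 and 11, centred 78.5 and 63.5 bp away, and within the same distance there were 3 ETS motifs at peak 6 and 1 each at peaks 9 and 10. Peak 11, 790 bases downstream of the Ptprb-203 start site, had an IDR of 0.0492, just inside the threshold of 0.05. Of the 11 peaks, 4 had a GATA and 5 an ETS motif, and 4 of the 11 lay in or within 10 kb of Ptprr as well. Replicate 2's list also held a Ptprb site that is not in the optimal list (chr10:116354551-116354910). It ranked 17386 of 26314, with 1 GATA and 2 ETS motifs.

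Over the 21 peaks a GATA motif was found in 10 and an ETS motif in 11, against 52.8% and 46.0% of all peaks. Both motifs were found in 6 (23.2% of all peaks) and neither in 6 (24.5%), so over all 21 the counts were near the shares of the whole list. The 6 with both had a median spacing of 34 bp between the closest GATA and ETS motifs, against 20 bp over the 5588 such peaks. By class, the GATA motif was in 6 of 13 intronic and 2 of 6 promoter peaks, where 61.3% and 25.7% of all peaks of those classes hold it. The ETS motif was in 6 of 13 intronic and 4 of 6 promoter peaks, against 47.8% and 42.3%.

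By the optimal list's summits, the counts differed between rank ranges. Among the peaks ranked 1 to 4821, the 7 peaks of the 5 genes there, Tek peaks 1 to 3 and Ptprb peaks 1 to 4, held the GATA motif in 3 and the ETS motif in 6, where 76.1% and 48.2% of all peaks of that range hold them. Of these 7, 5 were in both replicates' lists, against 59.9%. Among the peaks ranked 4822 to 9637 the GATA motif was in 3 and the ETS motif in 1 of the 4 peaks of the 5 genes, against 59.9% and 48.7%. From rank 9638 to 14452 the motifs were in 1 and 2 of 3 peaks, against 50.5% and 47.7%. From 14453 to 19263 each was in 1 of 3, against 44.8% and 45.8%. From 19264 to 24082 they were in 2 and 1 of 4, against 32.7% and 39.6%. With 3 to 7 peaks per range these are counts that show no steady change along the list, and no test was made.

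**Figure D3:**
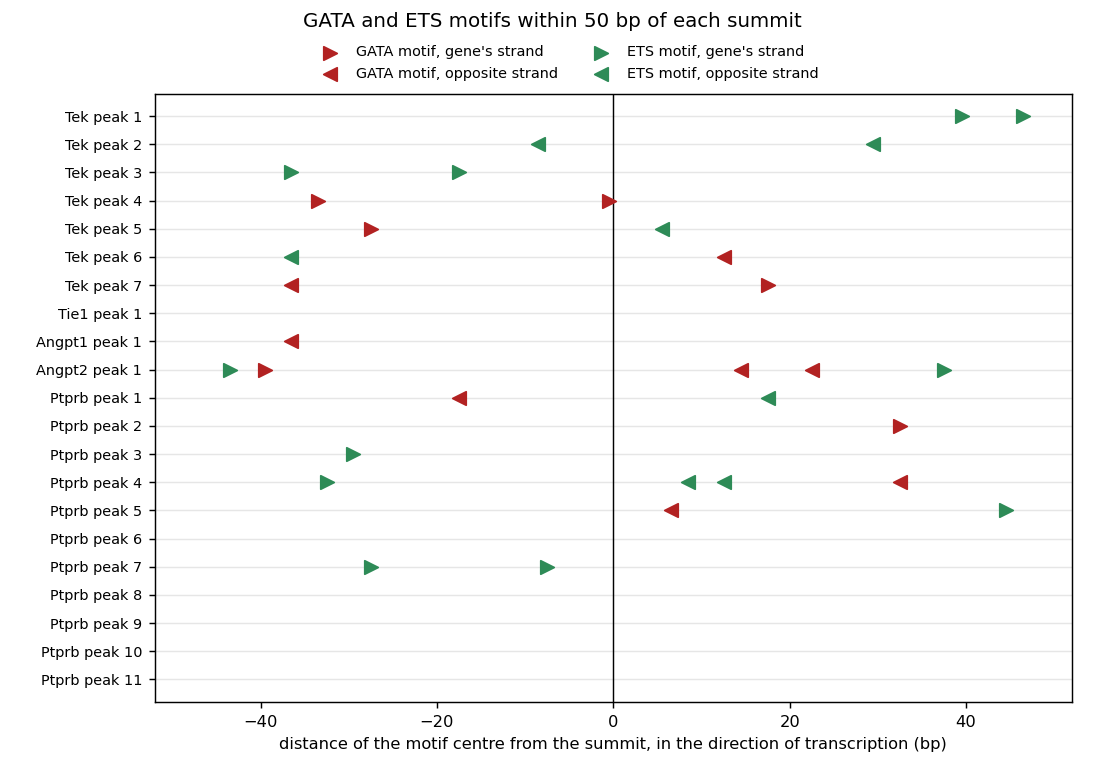
Position of each GATA and ETS motif (centre, in bp from the summit in the direction of transcription, horizontal axis) for the 21 peaks (rows), with arrowheads for the strand of the motif relative to the gene. At the optimal list's summits, Tek peaks 1 to 3 show ETS motifs only, Tek peaks 4 to 7 each show a GATA motif, and Tie1 peak 1 and Ptprb peaks 6 and 8 to 11 are empty. At replicate 1's summits, Tek peak 1 had a GATA and no ETS motif and Tek peak 5 had neither.

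Of the 21 peaks, 12 were in the earlier conservative list and 12 in the later one, against 38.2% and 40.8% of optimal peaks. They were Tek peaks 1 to 5, Angpt1 peak 1 and Ptprb peaks 1 to 6. A conservative summit was thus found at 3 of the 5 genes, against 21.9% of all genes in the earlier list. These 3 are the longest of the 5 genes, and no share over genes of like span is given for the conservative lists.

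Of 21 other genes of the pathway, 18 had a summit of the optimal list in the gene or within 10 kb, against 47.6% of all genes. At some of the 18 the strongest peak lay nearest to the start site of another gene. Grb7, Grb14 and Tnip2, which code for intracellular adapters of the receptor or its signalling, had none. The thresholded list of replicate 1 held a summit at 3 of the 21 genes, against 11.4% of all genes, and that of replicate 2 at 17, against 51.8%. The other ligands and matrix partners had very different ranks. Angpt4, a further angiopoietin, had 1 intronic peak, chr2:151927185-151927445, 16.1 kb from the start site, rank 62, with a signal score of 210.3 and 1 GATA motif, in both replicates' lists. It thus ranked above every peak of the 5 genes. Lect2, a hepatocyte protein that binds TIE1, had 3 summits, the strongest 82 bases before its start site, rank 7046, with 2 GATA motifs. Svep1, a matrix protein that binds TIE1, had 1 intronic peak of rank 19186, in replicate 1's list and not in replicate 2's. This peak lay 120242 bases from the Svep1 start site and nearest to the start site of Txndc8.

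At the other best-ranked pathway genes the strongest peak was in replicate 2's list and not in replicate 1's. The strongest peak near Mmp14, a membrane metalloprotease, ranked 2397 but lay nearest to the start site of Mrpl52. Cdh5, which encodes VE-cadherin, had 4 summits, the strongest of rank 2842, 2127 bases upstream of the start site, with 3 ETS and no GATA motifs. Itga5, an integrin subunit, had rank 3134, Pik3r1, the regulatory subunit of phosphoinositide 3-kinase, had 8 summits with a best rank of 3241, and Nos3, the endothelial nitric oxide synthase, had a best rank of 4119.

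Set beside endothelial receptor and junction genes, the best ranks of 144 at Tek, 824 at Ptprb, 8187 at Angpt1 and 12562 at Tie1 lay within the range of the 10 genes listed, and 21214 at Angpt2 lay outside it. Their best ranks ran from 29 at Gpr182, over 60 at Oit3, 85 at Mrc1, 133 at Flt1, 248 at Eng, 253 at Stab2 and 411 at Kdr, to 2122 at Pecam1, 12042 at Flt4 and 15197 at Lyve1. That range covers much of the list of 24083 peaks, so lying within it does not show likeness to these genes. The strongest peaks near Gpr182 and Pecam1 lay nearest to the start sites of Rdh1 and Tex2, in that order. Ptprb had 11 summits, beside 11 at Flt1 and 13 at Kdr. Of cell type markers, a summit was found at 5 of 5 for sinusoidal endothelium (Stab2, Lyve1, Gpr182, Oit3 and Mrc1) and 5 of 5 for hepatocytes (Alb, Hnf4a, Ahsg, Apoa2 and Slc2a2), against 47.6% of all genes. It was found at 2 of 5 for stellate cells (Lrat, Reln, Des, Hand2 and Colec11) and 0 of 5 for Kupffer cells (Clec4f, Adgre1, Vsig4, Cd5l and Marco). Which cells the peaks of the 5 genes came from was not tested.

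**Figure D4:**
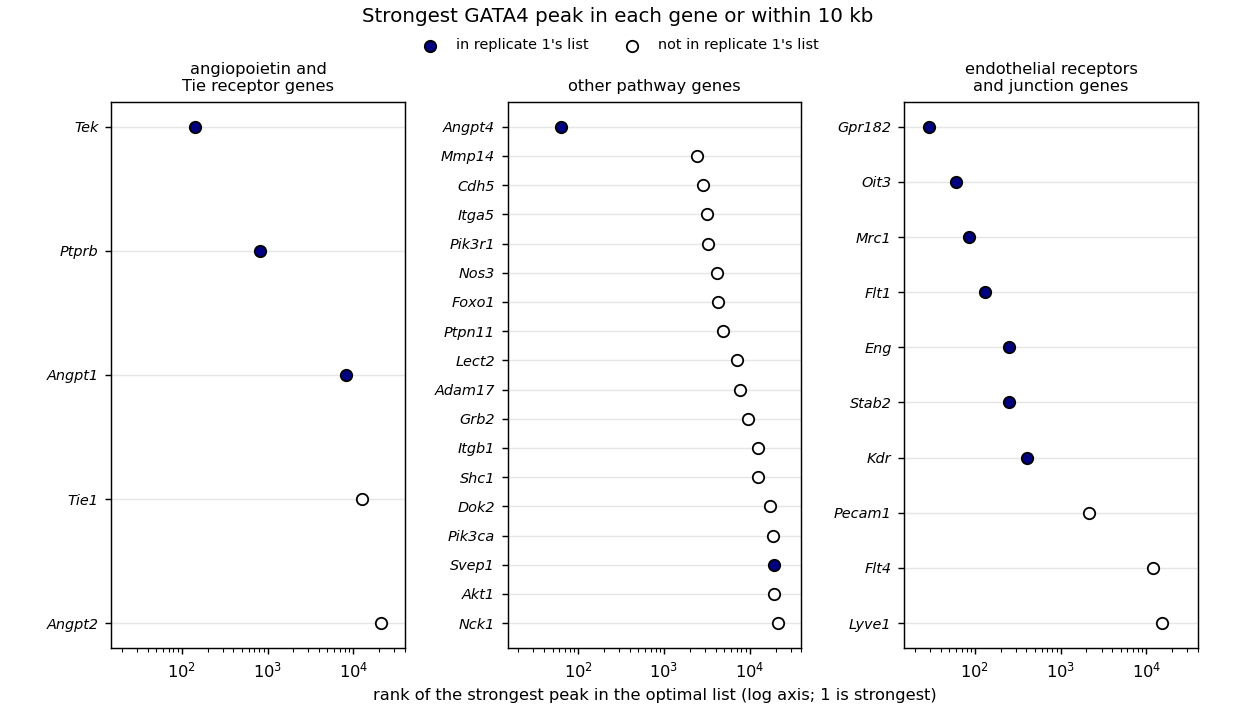
Rank of the strongest optimal-list peak in or within 10 kb of each gene (horizontal log axis, 1 is strongest) for the angiopoietin and Tie receptor genes, 18 other pathway genes with a peak and 10 endothelial receptor and junction genes, filled where that peak is in replicate 1's thresholded list. Tek, Ptprb, Angpt1 and Tie1, at ranks 144, 824, 8187 and 12562, lie between the first and the last endothelial gene, at 29 and 15197, and Angpt2 lies past them at 21214.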

How the data were processed

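The values came from 12 of 15 deposited peak lists, all on mm10. The 2 lists on mm9 and a list ranked between the replicates, with 8 columns of values of its inputs that name no sample, were not used. The authors deposited a signal score per peak with no unit, used here only to rank and describe peaks within a list, and read depth is unknown. Their deposited IDR score behaves in the files as -log2 of the IDR multiplied by 125, with 1000 as its ceiling. Per the README tables, the optimal and earlier conservative lists and the relaxed lists come from an earlier run, and the replicates' ranked and thresholded lists from a later one. Neither an aligner nor a caller of the mm10 lists is given in the sources used here.

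Genes and start sites were those of GENCODE mouse release 21 (basic), and sequence was GRCm38.p6. Peaks were called shared at 1 common base. Motifs were searched within 50 bp of the summit. A summit was called promoter within 1 kb of a start site, then exon, intron or intergenic. Counts are set beside the same share over all genes or peaks, and no test was made because the study has 1 group and genes and peaks are not replicates. The genes named are the 5 members, the 6 pathway genes with the best-ranked peak, every ligand, the neighbours that hold a peak and the listed endothelial genes, and Grb7, Grb14 and Tnip2 were named after their values were seen. The members and lists were chosen with earlier results of these data known. Alternatives were other windows, lists, IDR limits, motifs and overlaps. The scripts (Python 3.11.15, pandas 2.3.3, pysam 0.24.0, matplotlib 3.10.9) were tested on simulated data. The sequence at the Angpt2 peak is not reported here.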

Additional observations from a re-analysis of the deposited data

How the results depend on the processing

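Of 35 alternative values, 21 stayed within 1.5 times the reported one and 14 moved further. The number of the 5 genes with a summit was 3 in the earlier conservative list, against 21.9% of all genes. It was 3 in the later conservative list and 3 at an IDR of at most 0.01, where the shares of all genes are not given here. It ranged from 3 in replicate 1's list to 4 in replicate 2's, against 11.4% and 51.8% of all genes. Their 21 summits became 34 within 50 kb, 12 in the earlier and 12 in the later conservative list, and 6 to 20 with 1 replicate left out, 6 being replicate 1's own list. Peaks with a GATA motif fell to 4 for AGATAA alone, which 27.2% of all peaks hold, and to 6 within 25 bp. Peaks with an ETS motif fell to 2 for the longer form MGGAAGT, which 9.94% of all peaks hold, and to 6 within 25 bp. The shares of all peaks within 25 bp are not given here. With GATA alone in place of the longer motif, chosen after seeing the data, the count was 15, where 67.8% of all peaks hold it. The 18 pathway genes became 8 in the earlier conservative list and 3 to 17 with 1 replicate left out. Replicate 1's list holds 4287 peaks, against 26314 in replicate 2's. No paired analysis was possible because the study has 1 group. Read depth is unknown, and absence from a list does not show absence of binding.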
